A study of Mus musculus with 2 samples.

Results

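Voltage-gated and potassium channel genes were followed through the newborn mouse cerebellum, in single-cell RNA libraries of 1 Cxcr4+/+ and 1 Cxcr4+/1013 sample. The members are all genes whose symbol belongs to a potassium channel family (Kcn), a voltage-gated sodium channel family (Scn), the voltage-gated calcium channel alpha1, alpha2delta or beta subunits (Cacna1, Cacna2d, Cacnb) or the HCN pacemaker family (Hcn), and they number 127 of the 32285 genes in the files. Membership was by name only, with no measured value. After cells had been filtered, 1 member (Kcnk16) had no UMI (a molecule tagged before amplification), 14 had between 1 and 49 UMIs, and 112 had at least 50 and were described by cell class.

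The tissue was cerebellar lobules III and IV at postnatal day 1, dissociated with papain and run on a 10x droplet system that counts the 3′ ends of transcripts. The control library was Cxcr4+/+ and the other was heterozygous for the 1013 allele of Cxcr4, the receptor of the chemokine CXCL12, which holds granule cell progenitors at the cerebellar surface; the strain label of both is B6.129S2-Cxcr4tm1.1Bala. The extraction text of the labels words the second genotype as Cxcr4+/-, and the genotype label was used. The labels do not say how many animals a library holds; both libraries mixed cells with female-specific transcripts (44.3% of control and 42.5% of Cxcr4+/1013 cells) and cells with male-specific ones (35.6% and 44.5%). With 1 library per genotype, no test between genotypes was possible: every difference below compares those libraries, not the genotypes, and every interval covers counting error only.

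Voltage-gated sodium channels carry the rising phase of the action potential, calcium channels couple voltage to calcium entry, and potassium channels repolarise the membrane or set its resting level. Most work as a pore-forming alpha subunit with auxiliary subunits that alter trafficking and gating. In the cerebellum, Purkinje cells fire spontaneously with the help of resurgent sodium, P/Q-type calcium and large-conductance calcium-activated potassium channels, while granule neurons are known for A-type (Kv4) current, GIRK inward rectifiers and two-pore leak channels. Granule cell progenitors divide at the surface after birth, then leave the cell cycle and become granule neurons.

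The control library held 7712 cells with a median of 11905 UMIs and the Cxcr4+/1013 library 7568 cells with a median of 13280 UMIs. Cells were gated on marker genes that include no member into 15 classes, which took up 83.9% of control and 86.7% of Cxcr4+/1013 cells; since no cell annotation was used, classes are called by the markers they resemble ("-like"), and each is a range of a score, with 225 and 191 cells just outside and 177 and 158 just inside the cut. Purkinje-like cells (553 and 472) detected a median of 12 of their 12 markers, with Calb1 at 3693 and 3836 CPM (UMIs of a gene per 1000000 UMIs of the class) against 25.8 and 20.9 CPM in granule neuron-like cells. Granule neuron-like cells (1360 and 1513) detected a median of 7 of 10 and astroglia-like cells (832 and 488) 9 of 11. Granule progenitor-like cells (1179 and 1325) detected a median of 5 and 6 of their 8 markers, with Atoh1 at 72.6 and 81.7 CPM, and also 7 of the 10 granule neuron markers. Of these cells, 1035 and 1172 were separated from granule neurons by division genes, not by the progenitor list. The libraries shared 25 cell barcodes. Cxcr4 itself stood at 56.8 CPM in control and 54.7 CPM in Cxcr4+/1013 granule progenitor-like cells, which does not check the genotype labels, as 3′ counts do not read the allele.

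Levels are compared here within a gene, across classes or libraries. UMIs from 3′ ends were not divided by gene length, and the sources do not say whether intronic reads were counted, so levels of different genes were not ranked. A total of 43 members span at least 100 kb.

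The promoters of 3 members are printed: Kcnd2 and Kcnj3 because they were highest in granule neurons, and Hcn2 because it was among the members that differed between the libraries in Purkinje cells. They come from RefSeq (build GRCm38.p6) and run from 250 bases before to 50 after the transcript start, 5′ to 3′ on the gene's strand. Kcnd2, which encodes the A-type potassium channel Kv4.2 (ENSMUSG00000060882, chr6:21215503-21729805), has its window at chr6:21215096-21215395 on the plus strand. Kcnj3, which encodes the GIRK1 subunit (ENSMUSG00000026824, chr2:55435970-55598145), has its window at chr2:55435720-55436019 on the plus strand. Hcn2, a pacemaker channel gene (ENSMUSG00000020331, chr10:79716634-79736108), has its window at chr10:79716384-79716683 on the plus strand. Capitals mark matches, on either strand, to any of 5 motifs searched: the GC box GGGCGG, the TATA motif TATAAA, the E-boxes CAGCTG and CAGATG, and the cAMP response element TGACGTCA.
Kcnd2: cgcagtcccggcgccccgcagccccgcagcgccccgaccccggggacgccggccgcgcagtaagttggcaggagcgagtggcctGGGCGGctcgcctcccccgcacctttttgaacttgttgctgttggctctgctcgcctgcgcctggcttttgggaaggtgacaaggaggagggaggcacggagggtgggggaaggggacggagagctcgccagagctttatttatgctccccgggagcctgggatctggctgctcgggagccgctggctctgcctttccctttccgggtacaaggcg
Kcnj3: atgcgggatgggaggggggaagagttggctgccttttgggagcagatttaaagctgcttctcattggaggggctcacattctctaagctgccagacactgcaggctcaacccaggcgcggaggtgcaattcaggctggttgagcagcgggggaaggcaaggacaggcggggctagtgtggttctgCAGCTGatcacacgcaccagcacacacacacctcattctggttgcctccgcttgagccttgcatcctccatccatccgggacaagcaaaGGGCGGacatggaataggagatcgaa
Hcn2: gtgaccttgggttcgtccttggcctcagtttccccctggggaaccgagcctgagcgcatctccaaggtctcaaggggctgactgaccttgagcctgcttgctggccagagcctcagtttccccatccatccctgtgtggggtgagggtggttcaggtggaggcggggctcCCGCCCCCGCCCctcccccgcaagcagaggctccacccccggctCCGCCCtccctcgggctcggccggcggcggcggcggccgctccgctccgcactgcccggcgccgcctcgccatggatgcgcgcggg

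The table matched 92 of the 127 members with 127 windows of 300 bases. GGGCGG was in 46.5% of the members' windows and in 35.7% of all 32851 windows of the table, CAGCTG in 25.2% against 16.3%, CAGATG in 19.7% against 17.2%, and TATAAA in 5.51% against 13.6%. TGACGTCA was in none of the members' windows and in 1.79% of all. The Hcn2 window has 72.3% GC and 3 GC boxes, and the Kcnd2 window 68.7% GC and 1, against a median GC content of 58.3% over the members' windows and 52.7% over all. These matches describe letters only.

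The class with a member's highest level was usually the same in both libraries. Of the 112 described members, 90 (80.4%) had their highest level in the same class in both libraries, against 63.5% of all 18870 genes with at least 50 UMIs. Those genes were not otherwise matched to the members for UMI count. A highest class need not lead by much: Scn9a was 1.01-fold and 1.03-fold and Kcnk9 1.05-fold and 1.05-fold above the next class. Purkinje-like cells were that class for 22 members (19.6%, against 6.33% of all genes), granule neuron-like cells for 11 (9.82% against 2.17%), unipolar brush-like cells for 9 (8.04% against 2.63%) and the glutamatergic nuclear or midbrain neuron-like class for 8 (7.14% against 2.48%). The share of members was below that of all genes for ependymal-like cells (9 members, 8.04% against 13.4%), microglia-like cells (1, 0.893% against 6.45%) and granule progenitor-like cells (1, 0.893% against 4.88%). Mural-like cells held 7 (6.25% against 4.19%), midbrain-type GABAergic-like cells 5 (4.46% against 3.06%) and endothelial-like cells 4 (3.57% against 4.46%). Astroglia-like, oligodendrocyte lineage-like and fibroblast-like cells held 3 each (2.68%, against 2.73%, 2.73% and 3.45%), and interneuron-like cells and the GABAergic or glial progenitor-like class 2 each (1.79%, against 1.78% and 2.78%).

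**Figure D1:**
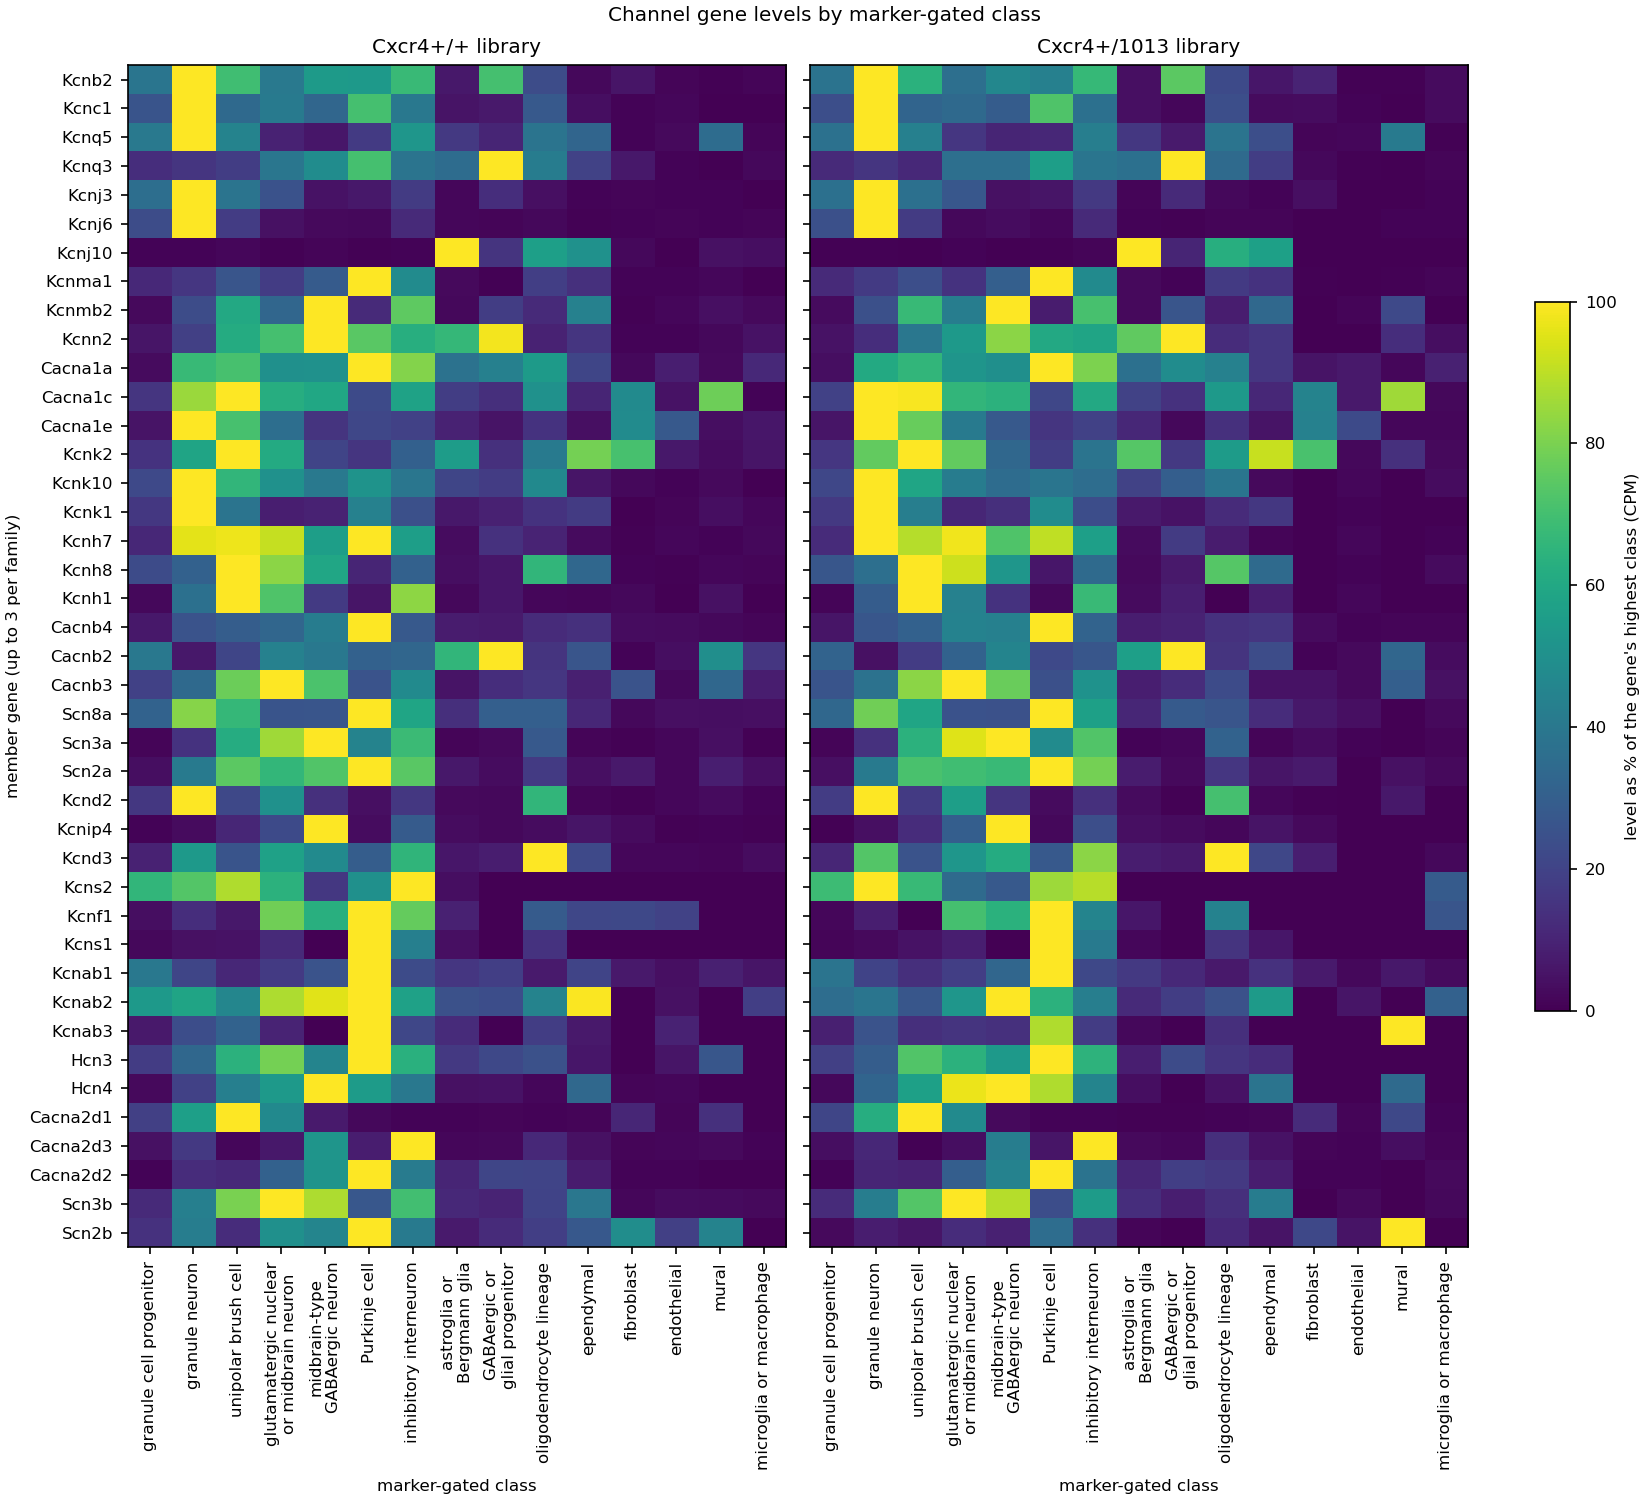
Level of up to 3 members per family (rows, from those with the most UMIs) in the 15 marker-gated classes (columns), as a percentage of the gene's highest class, in the Cxcr4+/+ (left) and Cxcr4+/1013 (right) library. Most rows have the same bright columns in both panels: Kcnd2, Kcnj3, Kcnj6 and Kcnb2 in granule neurons, Kcnma1, Cacnb4 and Cacna2d2 in Purkinje cells; small classes such as mural cells (48 and 22 cells) vary more.

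Among sodium channel alpha subunits, Scn8a, the Nav1.6 channel of the axon initial segment, was highest in Purkinje-like cells. It stood at 262 CPM in control and 305 CPM in Cxcr4+/1013 Purkinje-like cells, 215 and 238 CPM in granule neuron-like cells, and 82.3 and 101 CPM in granule progenitor-like cells. Scn2a, which encodes Nav1.2, was also highest in Purkinje-like cells, at 149 and 151 CPM, and stood at 5.61 and 6.21 CPM in granule progenitor-like cells. Scn3a, the embryonic and neonatal Nav1.3, was highest in midbrain-type GABAergic-like cells, at 347 and 322 CPM, with the glutamatergic nuclear or midbrain neuron-like class next, at 297 and 307 CPM. Scn7a, which encodes a sodium sensor rather than a voltage-gated pore, was highest in ependymal-like cells, at 28.3 and 25.1 CPM.

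Of the auxiliary beta subunits, Scn4b and Scn3b were not highest in Purkinje-like cells. Scn4b, the beta4 subunit linked to resurgent current in mature Purkinje cells, stood at 0.194 and 0.0669 CPM in Purkinje-like cells, whereas ependymal-like cells had 37.7 and 35.5 CPM. Scn3b was highest in the glutamatergic nuclear or midbrain neuron-like class, at 81.1 and 90.8 CPM.

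Among calcium channel genes, Cacna1a, the P/Q-type pore of Purkinje cells, was highest in Purkinje-like cells at 382 and 423 CPM; interneuron-like cells followed at 312 and 340 CPM and granule progenitor-like cells had 11.9 and 14.9 CPM. Cacna1e, an R-type channel, was highest in granule neuron-like cells at 383 and 431 CPM. Cacna1g, a T-type channel, stood at 63.2 and 63.9 CPM in Purkinje-like cells, near its level in fibroblast-like cells, at 68.2 and 78.1 CPM. The 3 abundant alpha2delta genes each had a different leading class: Cacna2d1 unipolar brush-like cells (1259 and 1409 CPM), Cacna2d2 Purkinje-like cells (245 and 249 CPM) and Cacna2d3 interneuron-like cells (651 and 754 CPM). Of the beta subunits, Cacnb4 was highest in Purkinje-like cells, at 456 and 452 CPM, and Cacnb2 in the GABAergic or glial progenitor-like class, at 329 and 417 CPM.

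The A-type channel gene Kcnd2 was highest in granule neuron-like cells, 1.52-fold and 1.42-fold above the next class. It reached 2930 CPM (95% Poisson interval 2900 to 2959) in control and 3151 CPM (3125 to 3177) in Cxcr4+/1013 granule neuron-like cells. Oligodendrocyte lineage-like cells followed at 1928 and 2218 CPM, and Purkinje-like cells had 116 and 88.6 CPM. With cells thinned to 5000 UMIs and shallower ones left out, 97.5% of 983 and 97.6% of 1282 granule neuron-like cells and 5.41% of 37 and 5.13% of 39 microglia-like cells had a Kcnd2 UMI (97.4% and 96.8%, 6.45% and 7.81% of all cells without thinning). Thinning left out 377 and 231 granule neuron-like and 25 and 25 microglia-like cells. Kv4 channels take KChIP subunits, which the Kcnip genes encode, and these did not share the pattern of Kcnd2. Kcnip4 was highest in midbrain-type GABAergic-like cells (2165 and 2366 CPM, against 63.6 and 99.5 CPM in granule neuron-like cells), Kcnip1 in Purkinje-like cells (278 and 333 CPM, against 2.95 and 2.05 CPM) and Kcnip3 in oligodendrocyte lineage-like cells (155 and 177 CPM, against 17.2 and 16.5 CPM).

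The delayed rectifiers and their relatives were mostly neuronal. Kcnb2, which encodes Kv2.2, was highest in granule neuron-like cells, at 1036 and 1165 CPM, and stood at 404 and 443 CPM in granule progenitor-like cells. Of the fast Kv3 genes, Kcnc1 was highest in granule neuron-like cells (99.0 and 131 CPM) and Kcnc2 in the glutamatergic nuclear or midbrain neuron-like class (272 and 255 CPM). Kcng3, a silent modifier subunit, was highest in that same class, at 17.7 and 14.4 CPM. The Kv1 gene Kcna1 was highest in Purkinje-like cells, at 44.3 and 54.9 CPM. That was 1.06-fold and 1.26-fold above granule neuron-like cells, at 41.8 and 43.4 CPM, so these classes were nearly level in the control only. Kcnab1, a cytoplasmic Kv beta subunit, was highest in Purkinje-like cells, at 223 and 213 CPM.

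Of the M-current genes, Kcnq5 was highest in granule neuron-like cells (685 and 804 CPM) and Kcnq3 in the GABAergic or glial progenitor-like class (386 and 456 CPM). Kcnh7, of the ERG family, was nearly level in granule neuron-like cells (463 and 487 CPM) and Purkinje-like cells (483 and 441 CPM), and the order of these classes differed between the libraries. Kcnma1, the pore of the large-conductance calcium-activated BK channel, was highest in Purkinje-like cells, at 909 and 989 CPM, and interneuron-like cells were next, at 439 and 472 CPM. Its neuronal auxiliary subunit gene Kcnmb4 did not follow: it stood at 4.59 and 5.29 CPM in Purkinje-like cells and was highest in granule neuron-like cells, at 70.7 and 85.9 CPM. Of the pacemaker genes, Hcn3 was highest in Purkinje-like cells, at 18.6 and 21.2 CPM, and Hcn4 in midbrain-type GABAergic-like cells, at 26.8 and 19.9 CPM.

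Several inward rectifiers and two-pore channels stood above the next class by more than 2-fold. Kcnj6 (GIRK2) stood at 726 and 752 CPM in granule neuron-like cells, 4.31-fold and 4.11-fold above the next class, and Kcnj3 (GIRK1) at 781 and 864 CPM, 2.60-fold and 2.70-fold above the next. Kcnj9, the GIRK3 gene, was highest in Purkinje-like cells, at 8.47 and 8.10 CPM. Kcnj8, the pore of the vascular ATP-sensitive channel, stood at 669 CPM (271 UMIs) and 808 CPM (117 UMIs) in mural-like cells, 17.3-fold and 16.4-fold above endothelial-like cells. Kcnj10, the glial Kir4.1 channel, was highest in astroglia-like cells, at 54.2 and 61.6 CPM, but only 1.77-fold and 1.60-fold above the next class. Its partner Kcnj16 was highest in ependymal-like cells, at 57.3 and 68.7 CPM. Kcnk13, a microglial two-pore channel, stood at 71.3 and 47.0 CPM in microglia-like cells. Kcnk1 and Kcnk10 were highest in granule neuron-like cells, Kcnk1 at 132 and 133 CPM, and Kcnk10 only 1.52-fold and 1.70-fold above the next class.

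Lists of channels known from mature cell types overlapped in part with these classes. Of 20 channels known from mature Purkinje cells, 11 were highest in Purkinje-like cells in both libraries. Those that were not include Scn4b and Kcnmb4, described above, and Kcna2, the Kv1.2 gene, at 19.5 and 26.0 CPM in Purkinje-like and 26.5 and 26.3 CPM in oligodendrocyte lineage-like cells. Of 16 known from mature granule neurons, 6 were highest in granule neuron-like cells in both libraries; Kcnk9, which encodes the leak channel TASK-3, was at 68.7 and 71.7 CPM there, just under unipolar brush-like cells at 72.4 and 75.3 CPM. Of 8 known from astroglia, 2 (Kcnj10 and Kcnn3) were highest in astroglia-like cells, Kcnn3 at 188 and 213 CPM. Of 9 known from mural and endothelial cells, 3 were highest in mural-like cells. Kcnj2 (29.2 and 27.3 CPM) and Kcna5 (7.82 and 7.66 CPM) of that list were highest in endothelial-like cells. Microglia-like cells were the highest class for 1 of 5 with enough UMIs of 6 known from microglia. Over all genes the shares were 6.33% for Purkinje-like, 2.17% granule neuron-like, 2.73% astroglia-like, 4.19% mural-like, 4.46% endothelial-like and 6.45% microglia-like cells.

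Channel genes as a group were higher in granule neurons than in their progenitors. The granule lineage was divided into dividing progenitors (1035 control and 1172 Cxcr4+/1013 cells), other progenitors (144 and 153), granule neurons with Cntn2 or Nhlh1 UMIs (782 and 1054) and later granule neurons with neither (578 and 459). All members together made up 3215 and 3627 CPM in dividing progenitors, 3179 and 3407 CPM in other progenitors, 10032 and 11713 CPM in Cntn2 or Nhlh1 positive neurons, and 13010 and 13282 CPM in later neurons. Of 75 members with at least 50 UMIs over the 4 stages, 53 (70.7%) were at least 2-fold higher in later neurons than in dividing progenitors in both libraries, against 18.5% of all 14832 genes. Only 3 members (4%) were at least 2-fold lower in both, against 14.4% of all genes. The median log2 fold was 1.78 and 1.88 over the members and 0.12 and 0.03 over all genes.

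Kcna1 was close to absent in progenitors, and Cacna1a and Cacna1e were low there against later neurons. Kcna1 stood at 0.699 and 0.747 CPM in dividing progenitors, 1.04 and 0.460 CPM in other progenitors, 40.6 and 43.7 CPM in Cntn2 or Nhlh1 positive neurons and 44.4 and 42.7 CPM in later neurons. Cacna1a went from 11.1 and 14.7 CPM in dividing progenitors through 218 and 225 CPM to 344 and 349 CPM in later neurons, and Cacna1e from 20.5 and 26.4 CPM through 332 and 395 CPM to 493 and 537 CPM. Both calcium channel genes were therefore above their progenitor level already in the Cntn2 or Nhlh1 positive neurons, and higher again in the later ones. Among sodium channel genes, Scn2a was 14.7-fold and 15.3-fold higher, Scn3a 16.1-fold and 15.5-fold, and Scn8a 2.89-fold and 2.41-fold higher in later neurons than in dividing progenitors.

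Some abundant members differed by smaller folds than Kcna1, Cacna1a and Cacna1e. Kcnd2 stood at 496 and 587 CPM in dividing progenitors, 229 and 279 CPM in other progenitors, 2609 and 3021 CPM in Cntn2 or Nhlh1 positive neurons and 3624 and 3532 CPM in later neurons. Other progenitors thus had the lowest Kcnd2 level of the 4 stages in both libraries. Kcnb2 was 2.79-fold and 2.44-fold, Kcnj3 2.99-fold and 2.78-fold and Kcnj6 5.44-fold and 4.75-fold higher in later neurons than in dividing progenitors. Kcnma1 differed by less than 2-fold, at 102 and 113 CPM in dividing progenitors and 175 and 176 CPM in later neurons. The 3 members that were lower in neurons were Cacnb2, at 126 and 127 CPM in dividing progenitors against 31.1 and 27.3 CPM in later neurons, Kcnip3, at 25.5 and 26.8 against 9.07 and 5.59 CPM, and Kcne1, at 3.93 and 2.33 against 0.245 and 0.671 CPM. Kcnab1 also stood highest in other progenitors, at 148 and 133 CPM, against 51.5 and 47.2 CPM in later neurons.

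**Figure D2:**
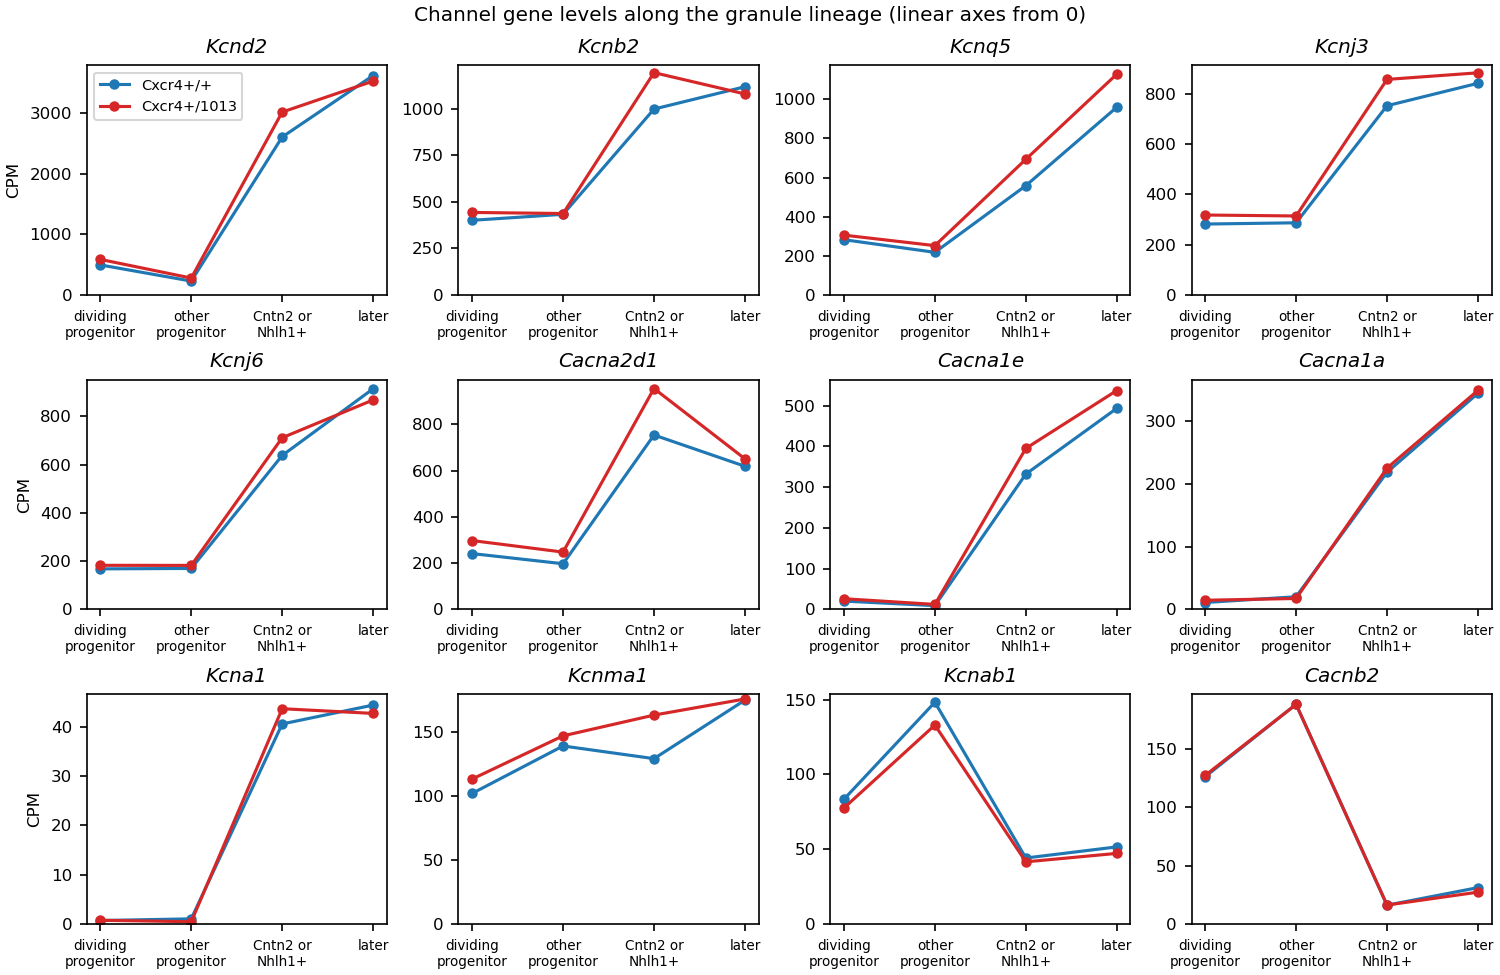
Level in CPM (linear axes from 0) of 12 members in 4 stages of the granule lineage, from dividing progenitors to later granule neurons, in the Cxcr4+/+ (blue) and Cxcr4+/1013 (red) library; each point is 1 library. Kcnd2, Kcnj3 and Cacna1a are several-fold higher in the neurons in both libraries, Kcnma1 differs by less than 2-fold and Cacnb2 is lower.

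Stage and depth moved together: later neurons had a median of 4855 UMIs in the control and 9931 in the Cxcr4+/1013 library, against 17551 and 19086 in dividing progenitors. Among cells with at least 4000 UMIs the count was again 53 of 75 members (background 17.6%), and with cells thinned to 5000 UMIs it was 36 of 58 (background 15.4%). Long genes were more often higher in later neurons than short ones over all genes, 29.8% of those spanning at least 100 kb against 16.4%, and among the members 30 of 40 long and 23 of 35 short ones were. Of the 42 auxiliary, anchoring and transport genes outside the families that were in the files, 19 were at least 2-fold higher in later neurons in both libraries, 2 lower, 16 neither and 5 had too few UMIs. Under the same main settings 18.5% of all 14832 genes were higher and 14.4% lower. The 19 higher genes include Cntnap2, a Kv1 clustering protein, and Fgf14, a sodium channel partner, both highest in unipolar brush-like cells in both libraries.

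Between the libraries, the summed level of the members was higher in Cxcr4+/1013 in all 10 of the larger classes, by small ratios. It was 3212 CPM in control and 3608 CPM in Cxcr4+/1013 granule progenitor-like cells (ratio 1.12, 95% counting interval 1.11 to 1.13), 10973 and 12113 CPM in granule neuron-like cells (1.10, 1.10 to 1.11), and 6896 and 6985 CPM in Purkinje-like cells (1.01, 1.004 to 1.022). Interneuron-like cells had 7063 and 7392 CPM (1.05) and astroglia-like cells 1911 and 2171 CPM (1.14). Of the 5 smaller classes, 2 went the other way, endothelial-like cells at a ratio of 0.835 and microglia-like cells at 0.777. The count of classes was 9 of 10 in female cells, in male cells and under the stricter filter of at least 1000 genes and at most 5% mitochondrial UMIs, and 8 of 10 with clusters computed without channel genes. Over the alternatives the ratio ranged from 0.842 to 1.05 in Purkinje-like, from 0.945 to 1.13 in midbrain-type GABAergic-like and from 0.887 to 1.43 in oligodendrocyte lineage-like cells, while it stayed between 1.08 and 1.20 in granule progenitor-like and between 1.10 and 1.18 in granule neuron-like cells.

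**Figure D3:**
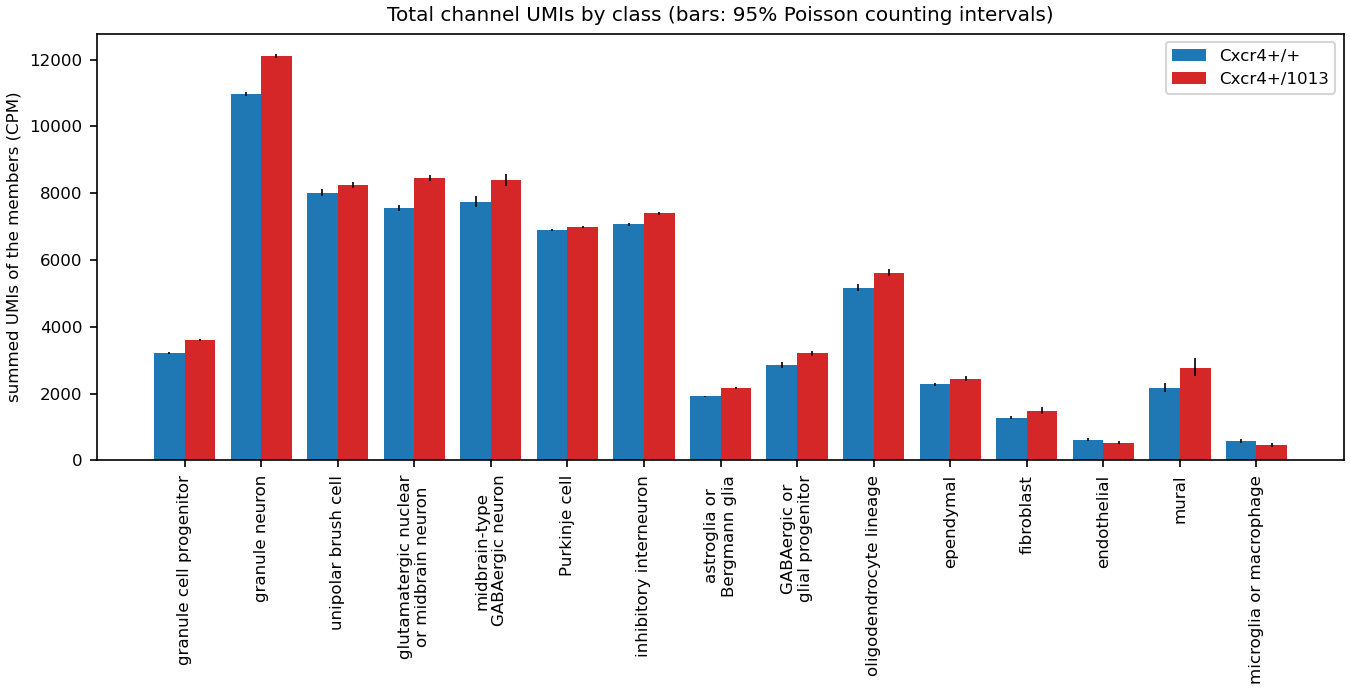
Summed level of all members in CPM (vertical axis from 0) by class in the Cxcr4+/+ (blue) and Cxcr4+/1013 (red) library; bars on the columns are 95% Poisson counting intervals. Granule neurons have the highest totals, 10973 and 12113 CPM, and the red column is the taller one in the first 10 classes by a small margin.

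Ratios differed between long and short genes, and the share of a nuclear RNA differed between the libraries, but not alike in every class. In granule progenitor-like cells the median log2 ratio was 0.14 over all genes spanning at least 100 kb and 0.04 over shorter ones, and it was 0.15 over long and 0.24 over short members. In astroglia-like cells it was 0.17 over long and 0.05 over short genes. Purkinje-like cells went the other way, with -0.05 over long and 0.01 over short genes, and -0.13 over long and 0.22 over short members. The median share of UMIs in Malat1, a nuclear RNA, was 0.467% and 0.554% in granule progenitor-like and 1.48% and 1.89% in astroglia-like cells, but 0.829% and 0.749% in Purkinje-like cells. It was 1.26% and 1.43% in unipolar brush-like cells (total ratio 1.03) and 1.04% and 1.22% in interneuron-like cells (1.05). In oligodendrocyte lineage-like cells it was 1.03% and 1.07% (1.09). The part of gene length and of nuclear transcripts in the ratios was not tested.

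Within granule neuron-like cells the higher total lay in the earlier stage. Cntn2 or Nhlh1 positive neurons had a total ratio of 1.17 (1.16 to 1.18) and later neurons 1.02 (1.01 to 1.03). The median log2 ratio over the members was 0.18 in the first, with 0.04 over all genes, and -0.00434 in the second, with -0.00982 over all genes. The depth of later neurons differed between the libraries, as given above.

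Few single members differed by 1.5-fold or more between the libraries. In granule progenitor-like cells 2 of 55 members with at least 50 UMIs were higher in Cxcr4+/1013 (background 3.07% of genes) and 1 lower (1.29%); in granule neuron-like cells 4 of 68 were higher (2.39%) and 3 lower (2.25%). In interneuron-like cells 2 of 80 were higher (2.42%) and 1 lower (1.82%), and in astroglia-like cells 3 of 50 were higher (5.19%) and 3 lower (2.12%). Purkinje-like cells had 5 of 76 higher (2.3%) and 5 lower (2.8%). Over these classes the members' median log2 ratio was 0.16 (granule progenitors, beside 0.06 over all genes), 0.08 (granule neurons, 0.02), 0.02 (Purkinje cells, 0.00247), 0.07 (interneurons, 0.01) and 0.12 (astroglia, 0.07).

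Hcn2 was among the members higher in Cxcr4+/1013 Purkinje-like cells. It had 226 and 374 UMIs, or 14.6 and 25.04 CPM, in Purkinje-like cells (ratio 1.71, 1.45 to 2.03). The log2 ratio was 0.84 among female and 0.85 among male cells, but -0.05 among the 126 control and 65 Cxcr4+/1013 Purkinje-like cells that had at least 1000 genes and at most 5% mitochondrial UMIs. Kcns2, a silent modifier subunit, had 40 and 87 UMIs there, or 2.59 and 5.82 CPM (ratio 2.25, 1.53 to 3.36), and was higher in granule neuron-like cells too, at 3.80 and 6.84 CPM (1.80, 1.28 to 2.56). Kcng2 and Kcnip3 were past the fold with intervals that include 1.

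Genes of the highest transcript GC content were more often at least 1.5-fold higher in the Cxcr4+/1013 library. Hcn2 transcripts have 65.4% GC and those of Kcns2, which had the larger ratio, 48.2%. Over all genes in Purkinje-like cells, 30.4% of those with at least 65% GC (17 of 56) and 4.86% of those between 60% and 65% were at least 1.5-fold higher in the Cxcr4+/1013 library, against 2.3% of genes of any GC content. The share at 65% GC or more was also above that at 60% to 65% in the other 4 classes examined, at 20.7% in granule progenitor-like, 20.8% in granule neuron-like, 13.6% in interneuron-like and 18.6% in astroglia-like cells. At 65% GC or more, 5.36% of genes were at least 1.5-fold lower in Purkinje-like cells, against 2.8% of all genes. That share was 3.45% (against 1.29%) in granule progenitor-like, 1.89% (2.25%) in granule neuron-like, 3.39% (1.82%) in interneuron-like and 6.98% (2.12%) in astroglia-like cells. The median log2 ratio of these genes ranged from 0.00278 in astroglia-like to 0.29 in Purkinje-like cells. The part of GC content in the ratio of Hcn2 was not tested.

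**Figure D4:**
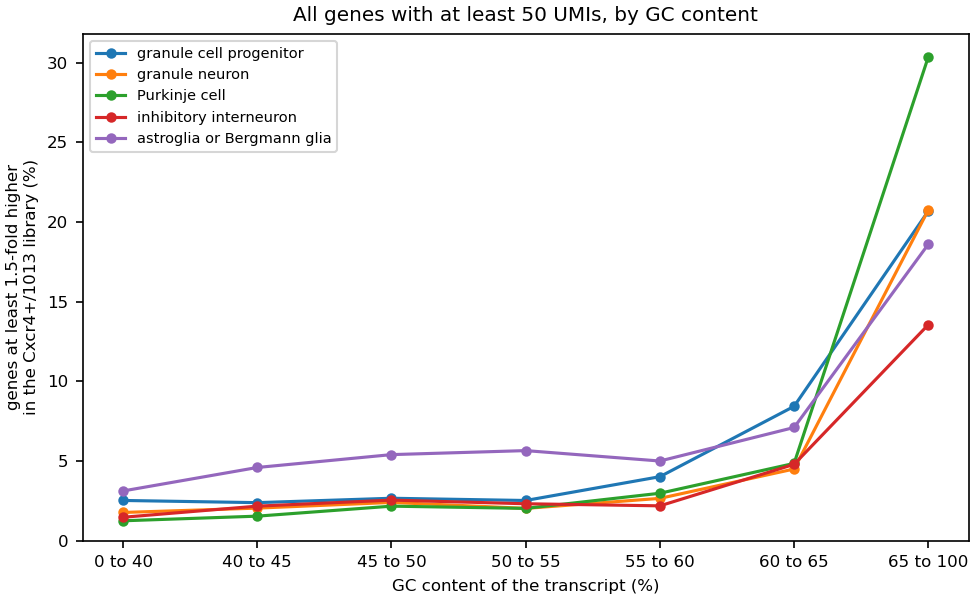
Share of all genes with at least 50 UMIs that were at least 1.5-fold higher in the Cxcr4+/1013 library (vertical axis, from 0) by GC content of the transcript (horizontal axis), in 5 classes. The last point, genes with at least 65% GC, is the highest in the Purkinje line, at 30.4% of 56 genes.

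The 5 members lower in Cxcr4+/1013 Purkinje-like cells stood there, in the control, between 1.98% and 11.9% of their level in their highest class. Kcnc2 had 155 and 80 UMIs (10.03 and 5.36 CPM, ratio 0.534, 0.403 to 0.704), which was 3.68% and 2.10% of its level in the glutamatergic nuclear or midbrain neuron-like class. Kcnh8, of the ELK family, had 219 and 121 UMIs (14.2 and 8.10 CPM, ratio 0.572, 0.454 to 0.717), Kcnh1 47 and 19 (ratio 0.418, 0.232 to 0.727), and Kcnmb2, an inactivating BK subunit, 463 and 291 (ratio 0.650, 0.560 to 0.755). Cacna2d1 stood at 24.97 and 16.3 CPM, which was 1.98% and 1.16% of its level in unipolar brush-like cells. Kcnc2 and Kcnh8 depended on which cells were used: their log2 ratios were -1.95 and -2.07 among male cells but -0.26 and 0.24 among female cells, and -0.23 and -0.30 without doublet removal. Kcnmb2 was -0.52 among female and -0.50 among male cells, under the 1.5-fold line. The marker list of unipolar brush cells summed to 18.0 and 11.05 CPM in Purkinje-like cells, with 0 of 5 genes higher in Cxcr4+/1013 and none at 0. That of granule neurons summed to 1046 and 907 CPM (5 of 10 genes higher), and that of the glutamatergic nuclear or midbrain neuron class, the highest class of Kcnc2, to 33.6 and 34.9 CPM (6 of 8 higher); their part was not tested.

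**Figure D5:**
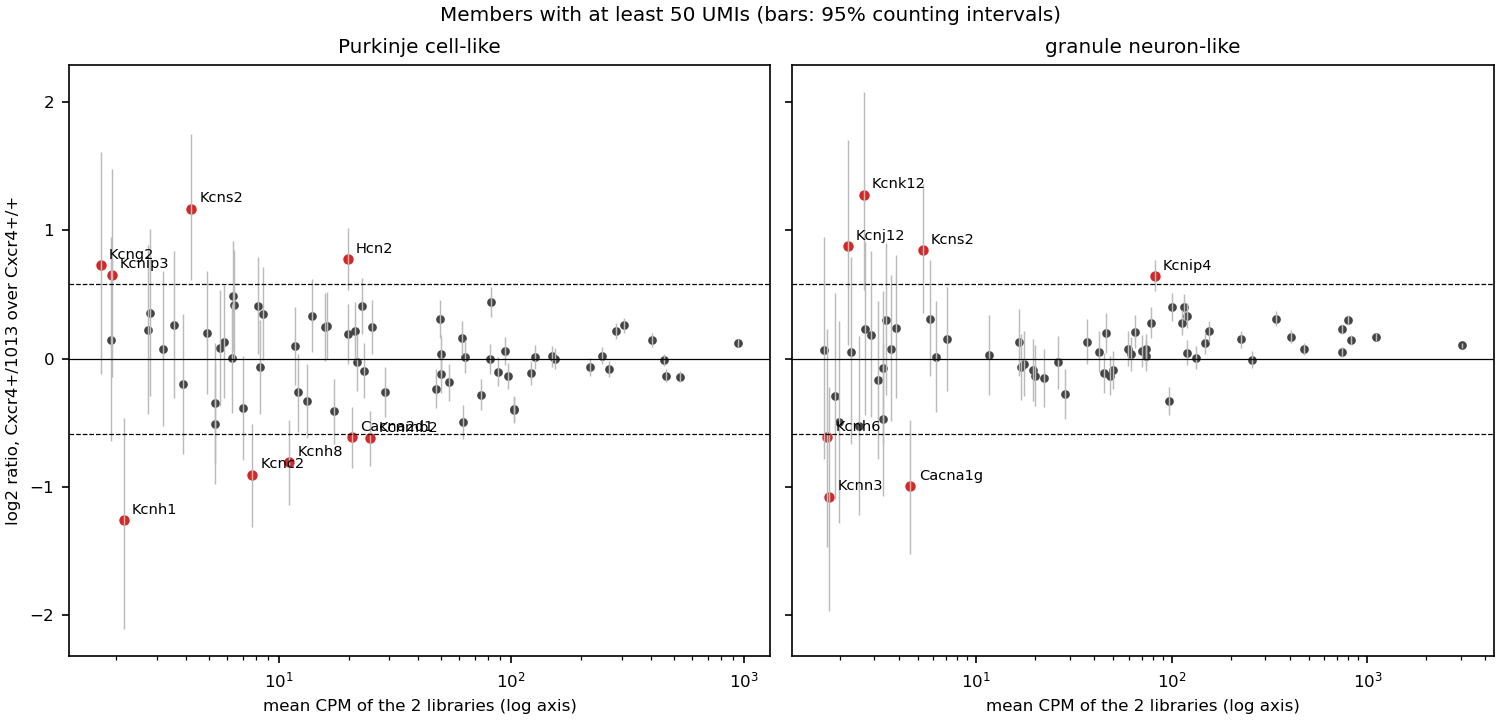
Log2 ratio of the Cxcr4+/1013 over the Cxcr4+/+ library (vertical axis) against mean CPM (horizontal log axis) for the members reported singly with at least 50 UMIs in Purkinje-like (left) and granule neuron-like cells (right); bars are 95% counting intervals, dashed lines 1.5-fold. Hcn2, at 14.6 and 25.04 CPM, and Kcns2 stand above the upper line in Purkinje-like cells, and most members past the lines have low levels and wide intervals.

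In granule neuron-like cells the largest count behind a difference was that of Kcnip4, with 821 and 1746 UMIs, or 63.6 and 99.5 CPM (ratio 1.56, 1.44 to 1.70). These UMIs came from 92 cells in each library, and 1 cell held 22.8% of them in the control and 26.1% in the Cxcr4+/1013 library. The log2 ratio was 0.03 when classes came from clusters computed without channel genes. Kcnk12 (20 and 66 UMIs, ratio 2.43, 1.45 to 4.22) and Kcnj12 (20 and 50, ratio 1.84, 1.07 to 3.26) were higher, and Cacna1g (79 and 54, ratio 0.502, 0.349 to 0.719) and Kcnn3 (31 and 20, ratio 0.474, 0.256 to 0.859) lower, all below 7 CPM. The log2 ratio of Cacna1g was -0.38 among female cells and -0.50 in cells with at least 4000 UMIs. Kcnh6 was past the fold with an interval that includes 1. Cacna1g and Kcnn3 stood in granule neuron-like cells at 8.98% and 1.28% of their top class in the control and at 3.94% and 0.535% in the Cxcr4+/1013 library. Marker lists of astroglia and of interneurons summed to 143 and 106 CPM and to 38.8 and 22.3 CPM in granule neuron-like cells, with 1 of 11 and 0 of 7 genes higher in Cxcr4+/1013 and none at 0. That of fibroblasts, the highest class of Cacna1g, summed to 8.60 and 1.65 CPM (0 of 6 higher). Other lists summed higher in Cxcr4+/1013, among them those of unipolar brush cells (83.4 and 97.5 CPM, 2 of 5 higher) and Purkinje cells (834 and 900 CPM, 3 of 12 higher). The part of these lists was not tested.

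In granule progenitor-like cells Kcnj12, the Kir2.2 gene, had 15 and 52 UMIs (ratio 2.85, 1.58 to 5.45) and Kcne1, an auxiliary subunit of KCNQ channels that was highest in this class, 75 and 55 UMIs (3.66 and 2.205 CPM, ratio 0.603, 0.418 to 0.865). Kcnj11, which encodes Kir6.2, was past the fold with an interval that includes 1. In interneuron-like cells Kcng3 (21 and 57 UMIs, ratio 1.91, 1.14 to 3.33) was higher and Kcnc4 (32 and 24 UMIs, ratio 0.529, 0.298 to 0.927) lower, but their log2 ratios were 0.27 and -0.11 among male cells.

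In astroglia-like cells the glial inward rectifier Kcnj16 had 125 and 121 UMIs, or 12.1 and 18.2 CPM (ratio 1.504, 1.16 to 1.95), and its partner Kcnj10 54.2 and 61.6 CPM. Kcnc2 (6.87 and 12.3 CPM) and Cacna2d3 (12.3 and 19.2 CPM) were higher and Kcnj6 (11.99 and 6.46 CPM) lower. These 3 stood below 5% of their top class in both libraries, and alternatives ended each call: the log2 ratio of Kcnj6 was -2.00 among female but -0.06 among male cells, that of Cacna2d3 0.17 without doublet removal and 0.25 among male cells, and that of Kcnc2 0.27 in thinned cells. The log2 ratio of Kcnj16 was 0.23 with clusters computed without channel genes. Kcnh8 was past the fold with an interval that includes 1. Lists of granule neuron and Purkinje markers summed to 701 and 766 CPM and to 1058 and 1197 CPM in astroglia-like cells, with 2 of 10 and 5 of 12 genes higher. Ependymal markers, of the highest class of Kcnj16, summed to 91.3 and 126 CPM there (5 of 6 higher), division genes to 1053 and 723 CPM (0 of 6 higher) and GABAergic or glial progenitor markers to 645 and 377 CPM (3 of 5 higher). The last list shares Hes5 with the astroglia list, and its sum was lower although most of its genes were higher. The part of these lists was not tested.

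The other 5 of the larger classes had 1 of 56 members higher (background 2.94%) and 2 lower (2.63%) in unipolar brush-like cells, 2 of 60 higher (4.45%) and 2 lower (4.09%) in the glutamatergic nuclear or midbrain neuron-like class, and 4 of 42 higher (5.24%) and 2 lower (3.74%) in midbrain-type GABAergic-like cells. The GABAergic or glial progenitor-like class had 2 of 24 higher (5.46%) and 2 lower (3.44%), and oligodendrocyte lineage-like cells 2 of 45 higher (4.55%) and 4 lower (2.51%). The difference with the most UMIs was Kcnq5 in the glutamatergic nuclear or midbrain neuron-like class, with 240 and 491 UMIs, or 66.5 and 128 CPM (ratio 1.93, 1.65 to 2.26). These UMIs came from 69 and 87 cells, with 12.1% and 10.4% from 1 cell. Kcnq5 was 41.8 and 82.5 CPM in midbrain-type GABAergic-like cells (1.97, 1.38 to 2.85), from only 18 and 12 cells, with 24% and 34.5% from 1 cell. Male cells made up 92 of 364 control and 18 of 347 Cxcr4+/1013 cells of the first class and 47 of 137 and 11 of 117 of the second. Its part in the Kcnq5 ratio was not tested. In the GABAergic or glial progenitor-like class Kcnd2 had 90 and 42 UMIs (ratio 0.336, 0.227 to 0.490), which was 2.08% and 0.649% of its level in granule neuron-like cells, with 28.6% of the Cxcr4+/1013 UMIs from 1 cell. Oligodendrocyte lineage markers summed to 106 and 38.5 CPM in that class (2 of 8 higher) and division genes to 1872 and 1341 CPM (0 of 6 higher); their part was not tested. In unipolar brush-like cells Kcnip1 had 164 and 151 UMIs (0.606, 0.483 to 0.761).

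Of the lists, the 19 tested channels known from mature Purkinje cells had a median log2 ratio of 0.15 in Purkinje-like cells, beside 0.00247 over all genes, with 1 member past the fold. The 10 tested channel genes of inherited ataxias had a median of 0.09 there and none past the fold. The 13 tested channels known from mature granule neurons had a median of 0.06 in granule neuron-like cells, beside 0.02 over all genes. Among the auxiliary, anchoring and transport genes outside the families, 0 of 39 were higher (background 2.3% of genes) and 1 lower (2.8%) in Purkinje-like cells. The lower one was Gem, which inhibits calcium channels, at 12.5 and 8.10 CPM. In granule neuron-like cells 1 of 36 was higher (2.39%) and 1 lower (2.25%). These counts are near the shares over all genes.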

How the data were processed

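Single-cell RNA was measured in 2 libraries, 1 per genotype. The deposited matrices hold raw UMI counts per gene and barcode; the submitters' processing notes name bcl2fastq 2.20.0.4222, Cell Ranger 7.2 and mm10, and no source here gives the annotation release or intron setting. The libraries held 9586 and 9551 barcodes with 120003656 and 130429500 UMIs. Filtering required 500 genes and allowed 10% mitochondrial UMIs, which left 8353 and 8194 barcodes, and Scrublet (scanpy 1.11.5) scores were used to remove 641 and 626 barcodes as doublets at 0.8% per 1000 barcodes, where its own threshold called 381 and 336.

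Each cell was scored for each marker list as the mean of log1p(UMIs per 10000), each gene scaled by its 99.5 percentile. It joined the class with the highest score if that led by 0.08 with at least 3 markers detected (2 of 5 for midbrain-type GABAergic cells). The granule progenitor and granule neuron lists entered as a single lineage score, the higher of both. Cells with at least 2 midbrain markers took the higher of the midbrain and interneuron scores and could not be called interneurons. Granule lineage cells were then divided into progenitors and neurons by stage. Dividing progenitors had at least 3 of 6 division genes, whichever of the lineage's lists scored higher. Other progenitors had an Atoh1 UMI and the higher score for the progenitor list. Neurons had no Atoh1 UMI, and later ones also had the higher score for the granule neuron list. Lineage cells that met none of these rules were left out of the classes. UMIs were summed per class and library and scaled to CPM; ratios of libraries have exact conditional binomial 95% intervals, CPM exact Poisson ones and shares of cells exact Clopper-Pearson ones. Differences were described at 1.5-fold with at least 50 UMIs over both libraries. No p-value was computed, and no replicate check exists; depth was checked by thinning and by a minimum of 4000 UMIs. The ratio script was tested on simulated data. Spans and GC content came from GENCODE vM21 (GRCm38). Alternatives were other filters, no doublet removal, 1 sex, thinning, clusters without channel genes, TMM factors (edgeR 4.0.16) and DESeq2 1.42.0 size factors; cells with at least 4000 UMIs and all alternatives of the stage comparison were added after seeing the data.

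Members named with values were, by rule, the 3 with the most UMIs per family, up to 4 highest in each main class, and up to 4 higher and 4 lower per main class between the libraries; others were named after their values were seen. The members and lists were chosen with earlier results of these data known. A few members are counted in the totals, counts and medians but are not reported here one by one.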

Additional observations from a re-analysis of the deposited data

Results flagged for a closer look

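The values that follow are log2 ratios of the Cxcr4+/1013 over the Cxcr4+/+ library under the main settings. Each member named was at least 1.5-fold higher in 1 class and at least 1.5-fold lower in another, so its direction differed between classes. Most of these values came from classes where the gene stood far below its highest level. Some fell short of 1.5-fold under alternatives. With 1 library per genotype the difference between classes was not tested. Kcnip4 was -0.695 in oligodendrocyte lineage-like cells, 0.645 in granule neuron-like cells and 0.678 in the GABAergic or glial progenitor-like class. Its highest class, midbrain-type GABAergic-like cells, had 2165 and 2366 CPM. In the order given, its control and Cxcr4+/1013 levels were 3.13% and 1.77%, 2.94% and 4.21%, and 2.12% and 3.11% of that class. In the same order, 1 cell held 24.1% and 13.5%, 22.8% and 26.1%, and 16.2% and 17.9% of its UMIs. The granule neuron-like value ranged from 0.0337 to 1.18 over the alternatives. Kcnc2 was -0.905 in Purkinje-like cells, 0.844 in astroglia-like cells and 0.970 in midbrain-type GABAergic-like cells. In that order, its control and Cxcr4+/1013 levels were 3.68% and 2.10%, 2.52% and 4.84%, and 11.4% and 23.8% of its highest class. Over the alternatives the Purkinje-like value ranged from -1.95 to -0.228 and the astroglia-like value from 0.273 to 1.13. Cacna2d3 was -1.19 in unipolar brush-like cells (36 and 24 UMIs, 36.1% and 37.5% of them from 1 cell) and 0.647 in astroglia-like cells. Its levels there were 1.93% and 0.733%, and 1.885% and 2.55%, of its highest class. The astroglia-like value ranged from 0.166 to 0.823 over the alternatives. Of the values in this paragraph, only those in granule neuron-like, Purkinje-like and astroglia-like cells were recomputed under the alternatives.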

How the results depend on the processing

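No paired analysis was possible because each genotype has 1 library and no replicate. For 24 member and class values, the 9 alternatives that can move a single ratio gave 216 recomputed log2 ratios, of which 168 were still past 1.5-fold in the same direction and 3 reversed: Kcnh8 in Purkinje-like cells (0.24, female cells), Kcnh6 in granule neuron-like cells (0.0319, thinned cells) and Hcn2 in Purkinje-like cells (-0.0543, at least 1000 genes and at most 5% mitochondrial UMIs). The median log2 ratio of the members in Purkinje-like cells was -0.00671 in male cells and -0.26 under that stricter filter, which kept 126 and 65 cells. Counts of members past 1.5-fold in either direction follow with the members tested and, in brackets, the share of all genes tested. They were 3 of 55 (4.36%) in granule progenitor-like, 7 of 68 (4.63%) in granule neuron-like, 10 of 76 (5.10%) in Purkinje-like, 3 of 80 (4.24%) in interneuron-like and 6 of 50 (7.30%) in astroglia-like cells. With a minimum of 20 UMIs they became, in the same order, 9 of 75 (7.996%), 11 of 79 (8.94%), 16 of 90 (9.54%), 7 of 91 (8.30%) and 16 of 72 (11.4%). With no minimum they became 33 of 115 (29.3%), 35 of 113 (29.3%), 33 of 117 (31.1%), 28 of 122 (27.8%) and 49 of 116 (34.6%), as genes of few UMIs entered. Granule neuron-like counts were 1 of 53 in female (4.67%), 2 of 53 in male (5.69%) and 1 of 51 in thinned cells (4.98%), and 4 of 66 in cells with at least 4000 UMIs (4.73%). Purkinje-like counts were 5 of 68 in female (5.04%) and 6 of 52 in thinned cells (5.81%), and 18 of 45 under the stricter filter (16.3%). Granule progenitor-like counts were 6 of 48 in male cells (6.11%) and 7 of 61 without doublet removal (5.10%), and the interneuron-like count was 5 of 82 without doublet removal (4.32%); the cause was not tested. TMM factors moved log2 ratios by -0.06 in granule progenitor-like and -0.09 in astroglia-like cells. Members higher in later neurons numbered 43 of 62 in female (16.6% of all genes) and 40 of 63 in male cells (16.5%). Counting depth limits what can be seen: the median half-width of the counting interval was 0.16 on the log2 scale in granule neuron-like and 0.37 in astroglia-like cells.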

Other observations

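The class of cells that resembled Purkinje cells but had no Ebf2 UMI (28 control and 22 Cxcr4+/1013 cells) had a median of 1221 and 732 UMIs, against 33503 and 35153 in those with one, so the absence of Ebf2 could not be told apart from low depth and members were not compared between them. In oligodendrocyte lineage-like cells Kcnd2 stood at 1928 and 2218 CPM and Kcnd3, another A-type channel gene, was higher than in any other class, at 197 and 182 CPM; these cells also had the highest Kcnip3 level, at 155 and 177 CPM.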
